A study of Mus musculus with 15 samples.

Results

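The amino acid transporters described here are the genes of 7 solute carrier families, Slc1, Slc3, Slc6, Slc7, Slc36, Slc38 and Slc43. They were chosen by symbol from the expression table, and 61 of its 21761 genes met the rule. One further gene of the Slc7 family matched the symbols and is not analysed here. A gene was tested where at least 3 libraries reached 1 RPKM (a read density scaled to transcript length and library depth). This held for 24 of the 61 transporter genes and for 10866 genes in all. By family the tested genes were 7 of 15 in Slc7, 6 of 11 in Slc38, 3 of 3 in Slc43, 3 of 7 in Slc1, 2 of 4 in Slc36, 2 of 19 in Slc6 and 1 of 2 in Slc3. The rule goes by symbol alone, so it also takes in Slc7a6os, a gene next to Slc7a6 that encodes no transporter. It takes in Slc43a3, a carrier of purine bases, and the neurotransmitter carriers of the Slc6 family as well.

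The study asked how a chemical block of the demethylases of H3K27me3, a repressive histone mark, affects B cells that differentiate in culture. The 15 poly(A) RNA libraries fell into 5 groups of 3, and all came from wild-type female C57BL/6J mice. The naive group was CD43- splenic B cells that received no stimulation and no drug, and the labels do not state clearly whether they were cultured too. The other 4 groups came from such cells grown with the bacterial lipopolysaccharide LPS, IL-2 and IL-5 for 3 days, with either 250 nM GSK-J4 (the demethylase inhibitor) or its solvent DMSO. Magnetic enrichment then gave a GL7+ fraction, which the labels call activated B cells, and a CD138+ fraction, which they call plasmablasts (antibody-secreting cells that still divide). Magnetic enrichment for 1 marker can leave other cells in a fraction. The labels name 3 mice as the sources. One CD138+ GSK-J4 library, called replicate 4 here, could not be tied to a mouse. Against naive cells, stimulation and culture cannot be told apart.

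Cells take up amino acids through carriers that differ in substrate, driving ion and location. The CD98 heavy chain, encoded by Slc3a2, brings a light chain of the Slc7 family to the cell surface. LAT1 (Slc7a5) is the light chain for large neutral amino acids such as leucine, and it exchanges them for glutamine that other carriers have brought in. Activated lymphocytes are known to need this uptake to grow, and plasma cells to need it for antibody synthesis. When amino acids run short, the kinase GCN2 raises the translation of the transcription factor ATF4, whose targets include several of these carriers. Leucine and arginine inside the cell are sensed by regulators of mTORC1, in part through Slc38a9 on the lysosome.

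ATF4 binds with C/EBP factors to an element whose core is TGATGNAA, and that core was searched on both strands of RefSeq promoter windows of the mouse assembly GRCm38.p6. Each window ran from 250 bases before to 50 bases after a start site. The core was present in 1304 of 32851 windows (3.97%), and in windows of 1219 of 27025 genes (4.51%). Of the 61 transporter genes 43 had a window and 2 held the core (4.65%), while of the 24 tested genes 18 had a window and the same 2 held it (11.1%). One window of each is printed from 150 bases before to 10 after the start site, because they are the tested genes whose windows hold this element. Slc7a3, Slc6a6, Slc7a5, Slc1a5, Slc38a1 and Slc43a3 had no window and were not searched. Capitals mark the core, which Slc1a4 carries as TTGCATCA on the opposite strand from position -4 to position 4. Slc1a4 lies at chr11:20332704-20332863 (minus strand) and Slc7a7 at chr14:54417935-54418094 (minus strand). A match of letters in these windows is a description and shows no binding.
Slc1a4: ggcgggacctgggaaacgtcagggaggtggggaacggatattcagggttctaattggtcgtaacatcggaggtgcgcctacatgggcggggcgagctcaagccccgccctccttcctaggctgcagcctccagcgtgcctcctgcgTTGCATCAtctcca
Slc7a7: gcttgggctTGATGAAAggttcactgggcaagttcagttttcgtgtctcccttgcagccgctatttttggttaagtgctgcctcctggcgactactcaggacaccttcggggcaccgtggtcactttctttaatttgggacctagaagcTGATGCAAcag

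Depth was 9174330 to 12212227 reads in the GL7+ libraries, 9677207 to 11635700 in CD138+ DMSO, 6241266 to 7712340 in CD138+ GSK-J4 and 1318004 to 13190240 in naive cells, where replicate 2 was the shallowest of all. These are the smallest depths that make the values whole reads, and a multiple of one would multiply the reads given for that library. Summed over 5 plasmablast markers, levels were 272 to 310 RPKM in naive, 598 to 659 in GL7+ DMSO and 2849 to 3063 in CD138+ DMSO libraries. With GSK-J4 that sum was 773 to 868 in GL7+ and 3111 to 3289 in CD138+ cells. Sdc1, which encodes CD138, was at 32.6 RPKM in CD138+ DMSO and 1.37 in GL7+ DMSO cells. GL7 is a glycan epitope with no gene of its own. Naive libraries held more RNA of other cells: 9 myeloid markers summed to 59.6 to 96.3 RPKM, against at most 4.35 in any cultured library, and 9 T cell markers to 11.0 to 11.8, against at most 0.852. Markers of erythroid cells and platelets summed to 70.9 to 86.2 RPKM in naive, 5.78 to 7.25 in GL7+ DMSO and 9.19 to 9.84 in GL7+ GSK-J4 libraries. The sum over 5 B cell markers was 3364 to 3489 in GL7+ DMSO and 2721 to 2971 in GL7+ GSK-J4, and 2429 to 2616 and 2287 to 2474 in the same groups of CD138+ cells. Of 6 dendritic markers 5 were below 1 RPKM in every cultured library, and Flt3 was at 31.6 RPKM in GL7+ DMSO, 20.9 in GL7+ GSK-J4, 9.78 in CD138+ DMSO and 5.64 in CD138+ GSK-J4 cells.

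With GSK-J4, amino acid transporters moved in a small and uneven way. Some carriers of glycine, taurine and small neutral, cationic, branched-chain and aromatic amino acids fell, and the abundant LAT1 system did not pass the test. In CD138+ cells 6 of the 24 tested genes passed an adjusted p of 0.05 (limma, Benjamini-Hochberg over all genes tested), beside 13.2% of all genes. Slc7a3, Slc6a9, Slc43a2, Slc1a4 and Slc6a6 fell (8.61% of all genes fell) and Slc38a10 rose (4.61% rose). In GL7+ cells 8 of the 24 passed, beside 13.5% of all genes. Slc6a9, Slc1a4, Slc43a2, Slc7a3, Slc38a9 and Slc6a6 fell (7.71% of all genes fell), and Slc38a10 and Slc7a6 rose (5.81% rose). The 5 genes that fell in CD138+ cells were all among the 6 that fell in GL7+ cells. The share of all genes that fell in both fractions was not computed. Both comparisons share mice and 1 spread per gene, so this overlap is no independent support. Over the 24 tested genes the median log2 change was -0.03 in CD138+ cells, where it was -0.03 over all genes, and -0.07 in GL7+ cells, where it was -0.01 over all genes. All log2 changes were computed from log2(RPKM + 1), so those of genes at low levels come out too small. The sums of erythroid, B cell and plasmablast markers given above moved with GSK-J4 in GL7+ cells. In CD138+ cells the plasmablast sum was higher with GSK-J4, and Flt3 was lower in both fractions. The part of these markers in the changes was not tested. P-values rest on 1 spread per gene, estimated over all 5 groups of 3 libraries and not over the compared groups alone. In such bulk samples, fewer cells of a type and less RNA per cell cannot be told apart.

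**Figure D1:**
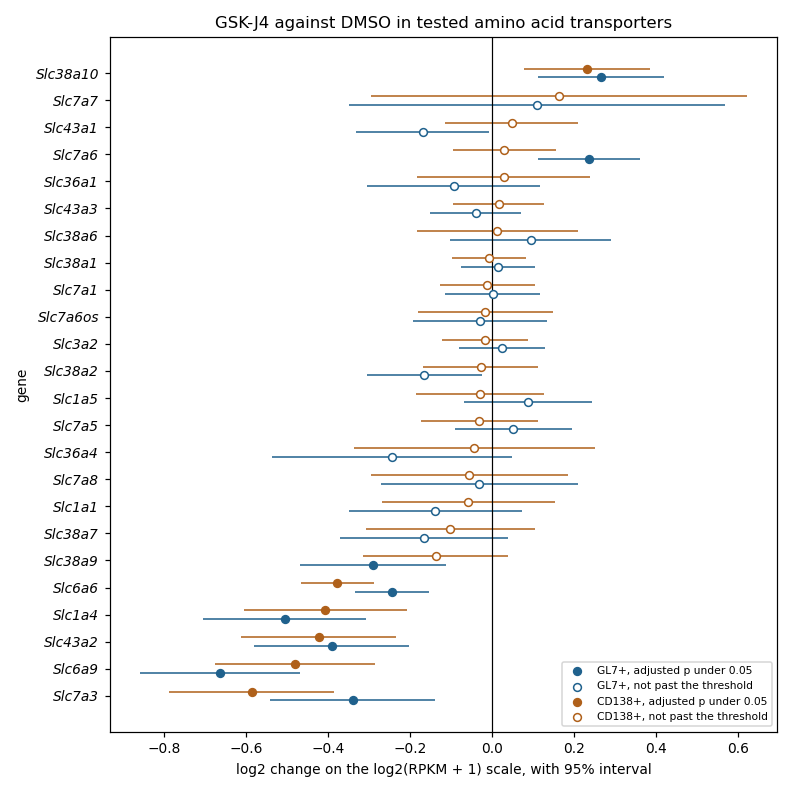
Log2 change with GSK-J4 against DMSO (log2(RPKM + 1) scale, with 95% interval) for the 24 tested transporter genes, in GL7+ (blue) and CD138+ (orange) cells. Filled points passed an adjusted p of 0.05: 8 genes in GL7+ and 6 in CD138+ cells, most of them to the left of 0.

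The differences between cell states were larger. In GL7+ DMSO against naive cells 14 of the 24 tested genes were higher and 7 lower, beside 81.7% of all genes that passed (41.3% higher and 40.3% lower), and the median log2 change was 0.34 (0.01 over all genes). In CD138+ DMSO against naive cells 16 were higher and 7 lower, beside 83.4% of all genes (39.9% higher and 43.5% lower), with a median of 0.93 (-0.05 over all genes). These comparisons share the naive libraries. Between the fractions under DMSO, CD138+ cells had 12 of the 24 higher and 5 lower than GL7+ cells, beside 58.7% of all genes, with a median of 0.16 (-0.10 over all genes). Of all genes, 21.8% were higher and 36.9% lower in CD138+ cells. Slc1a1 and Slc7a8 reached 1 RPKM in CD138+ libraries alone, Slc1a4, Slc6a9 and Slc7a3 in cultured libraries alone, and Slc38a6 in naive libraries alone. These genes thus entered the counts through the groups where they were highest. The myeloid and T cell markers given above moved in the same comparisons with naive cells, and their part in them was not tested.

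**Figure D2:**
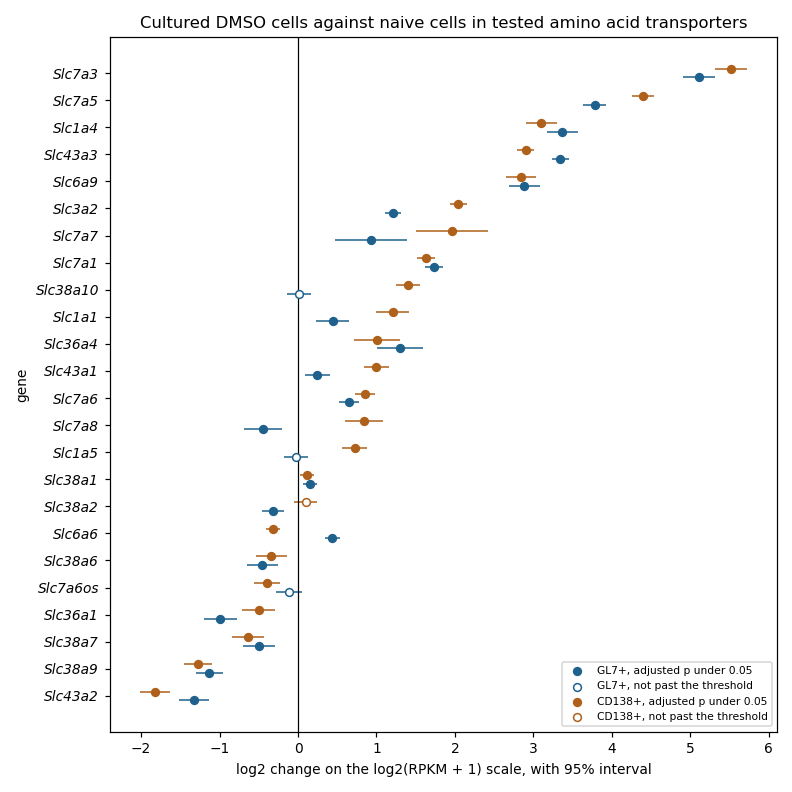
Log2 change in GL7+ DMSO (blue) and CD138+ DMSO (orange) cells against naive cells (log2(RPKM + 1) scale, with 95% interval) for the 24 tested transporter genes. Slc7a3, Slc7a5, Slc1a4, Slc43a3 and Slc6a9 stand farthest to the right, at 2.84 to 5.52, and Slc43a2 farthest to the left, at -1.32 and -1.83.

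The CD98 heavy chain and its main light chain were among the most abundant transporter transcripts of cultured cells. Slc3a2, the heavy chain, was at 34.7, 35.8 and 34.4 RPKM in the naive libraries (replicates 1, 2 and 3). It was at 80.9, 87.1 and 78.8 in GL7+ DMSO and at 143, 150 and 149 in CD138+ DMSO. No naive library reached the GL7+ range and no GL7+ library the CD138+ range. The log2 change was 1.21 in GL7+ DMSO cells against naive cells (SE 0.0490, limma adjusted p = 7.6e-12), 2.04 in CD138+ DMSO cells (1.6e-14) and 0.83 between the fractions (3.5e-09). With GSK-J4, Slc3a2 was at 80.4, 86.0 and 84.5 in GL7+ and at 144, 140 and 153 in CD138+ cells (replicates 1, 2 and 4). Each range overlapped that of its DMSO group, with 95% intervals of the log2 change from -0.08 to 0.13 in GL7+ and from -0.12 to 0.09 in CD138+ cells.

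Slc7a5, the LAT1 light chain, was at 10.5, 10.2 and 11.2 RPKM in naive libraries. It was at 149, 174 and 155 in GL7+ DMSO and at 232, 256 and 246 in CD138+ DMSO. It held 2.60% ± 0.141 (SD, n = 3) of the summed RPKM of all 61 transporter genes in naive cells, 22.4% ± 1.27 in GL7+ DMSO and 24.9% ± 0.919 in CD138+ DMSO cells. The 3 groups did not overlap, with log2 changes of 3.78 (SE 0.0668, adjusted p = 1.1e-15) and 4.40 (2.2e-16) against naive cells and 0.62 (1.8e-06) between fractions. In GSK-J4 libraries Slc7a5 was at 156, 178 and 161 in GL7+ and at 228, 239 and 250 in CD138+ cells. Both ranges overlapped those of DMSO, and the 95% intervals of the log2 change ran from -0.09 to 0.19 and from -0.17 to 0.11. The data thus place any GSK-J4 effect on this transcript within those bounds, and the missed threshold does not show that there was none.

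The other light chains were lower. Slc7a6 and Slc7a7, which with CD98 form the y+L system that exchanges cationic against neutral amino acids, are both described here. Slc7a6 was at 11.6, 11.9 and 12.5 RPKM in GL7+ DMSO and at 13.8, 14.6 and 14.6 in GL7+ GSK-J4 libraries, with no overlap (log2 change 0.24, SE 0.0585, adjusted p = 0.017). In CD138+ cells it was at 14.1, 13.7 and 14.1 with DMSO and at 14.4, 14.6 and 13.9 with GSK-J4, and these overlapped (0.03, adjusted p = 0.81). GL7+ cells with GSK-J4 were thus near the level of CD138+ cells, and the naive libraries were lower than any cultured one at 8.01, 6.81 and 7.09. The rise in GL7+ cells missed the threshold without GL7+ DMSO replicate 1 (adjusted p = 0.074), GL7+ GSK-J4 replicate 2 (0.067) or GL7+ GSK-J4 replicate 3 (0.062). The plasmablast markers summed higher in the same GL7+ libraries, as given above, and their part was not tested. Slc7a6os lies next to Slc7a6 in RefSeq, and without a stated strand setting reads where such genes overlap cannot be told apart. It was at 10.9 ± 0.320 RPKM in GL7+ DMSO and 10.7 ± 0.867 in GL7+ GSK-J4 cells (n = 3 each).

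The window of Slc7a7 printed above holds 2 copies of the core, while some windows at other start sites of this gene hold none. Slc7a7 rose with differentiation, and a link to the core was not tested. It was at 4.20, 1.52 and 4.55 RPKM in naive, 6.49, 7.55 and 6.92 in GL7+ DMSO and 14.1, 16.3 and 15.3 in CD138+ DMSO libraries. Naive replicate 2, the shallowest library, held 5 reads of it. The groups did not overlap, with log2 changes of 0.93 (SE 0.214, adjusted p = 0.00097) in GL7+ and 1.96 (5.9e-07) in CD138+ cells against naive cells, and of 1.02 (0.00083) between fractions. Its GSK-J4 libraries were at 8.44, 6.74 and 7.70 in GL7+ and at 17.6, 15.2 and 19.0 in CD138+ cells. Those overlapped with DMSO, and the wide 95% intervals, from -0.35 to 0.57 and from -0.29 to 0.62, leave room for changes either way. Their width rests on a spread shared with naive cells, which were at 3.43 ± 1.66 RPKM (SD, n = 3). The compared groups were tighter for their level. They were at 6.99 ± 0.533 and 7.63 ± 0.852 in GL7+ and at 15.2 ± 1.09 and 17.2 ± 1.93 in CD138+ cells, with DMSO and GSK-J4.

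Slc7a8, the LAT2 light chain, was the rarest of the group. It was at 0.554, 0.899 and 0.352 RPKM in naive libraries, from 37, 6 and 11 reads. It was at 0.223, 0.0860 and 0.181 in GL7+ DMSO and at 1.75, 1.87 and 1.89 in CD138+ DMSO libraries. All 3 CD138+ libraries were thus above all others, by a log2 change of 1.29 over GL7+ cells (SE 0.112, adjusted p = 2e-07) and of 0.84 over naive cells (5.4e-06), while GL7+ cells were below naive cells (-0.45, 0.0019). It reached 1 RPKM in CD138+ libraries alone, 6 in all, so it was tested through the groups where it was highest. The p-values of its excess there are thus no independent support. With GSK-J4 Slc7a8 stayed at 0.108 to 0.157 in GL7+ and at 1.49 to 1.92 in CD138+ libraries, overlapping with DMSO.

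Summed over Slc7a5, Slc7a6, Slc7a7 and Slc7a8, light chain RPKM stood to Slc3a2 RPKM as 0.630 ± 0.0749 in naive cells, 2.17 ± 0.0845 in GL7+ DMSO and 1.87 ± 0.0449 in CD138+ DMSO cells (SD, n = 3). Naive libraries, at 0.544 to 0.676, thus held more heavy than light chain transcript per length, and every cultured library held more light than heavy chain. The ratio was 2.24 ± 0.0747 in GL7+ GSK-J4 and 1.87 ± 0.0613 in CD138+ GSK-J4 cells, within the spread of the DMSO groups. Slc3a2 also pairs with light chains outside this sum, so the ratio describes these transcripts and not the protein.

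**Figure D3:**
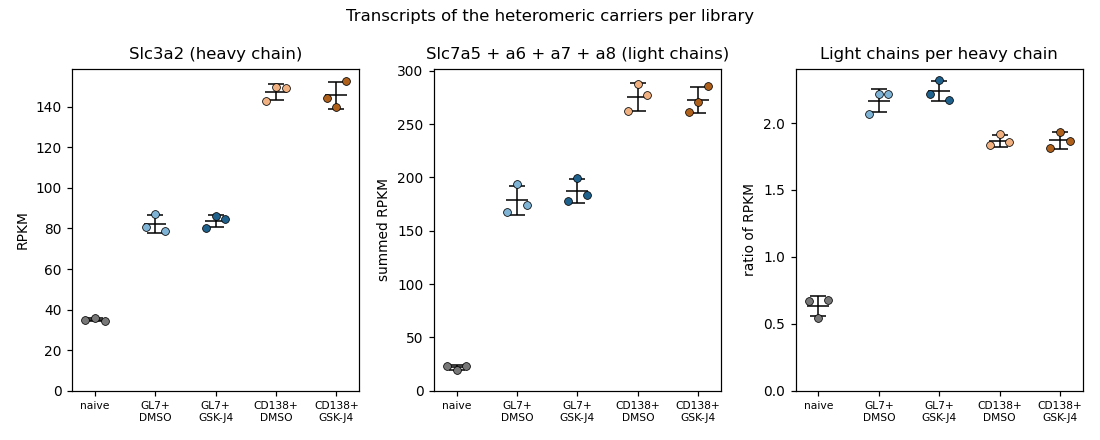
RPKM per library of the CD98 heavy chain Slc3a2 (left), the sum of 4 light chains (middle) and their ratio (right), by group, with mean ± SD (n = 3). Naive libraries lie below 1 in the ratio and all cultured libraries near 2, with GL7+ above CD138+ cells.

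The cationic amino acid carriers Slc7a1 and Slc7a3, which take up arginine and lysine without a heavy chain, behaved differently under GSK-J4. Slc7a3 was nearly absent from naive cells, with 3, 0 and 1 reads. It was at 32.4, 40.0 and 34.4 RPKM in GL7+ DMSO and at 43.2, 51.2 and 47.9 in CD138+ DMSO libraries, so that its log2 change against naive cells was 5.11 (adjusted p = 1.5e-15) and 5.52 (5.4e-16), the largest of the 24 tested genes in both. With GSK-J4 it was at 27.0, 30.1 and 26.5 in GL7+ and at 30.1, 35.4 and 28.3 in CD138+ libraries. Every GSK-J4 library was below every DMSO library of its fraction. In CD138+ cells it fell by 0.59 on the log2 scale (SE 0.0940, adjusted p = 0.0011), to 69.2% and 69.8% of the DMSO level in the 2 mice with both libraries. In GL7+ cells it fell by 0.34 (adjusted p = 0.029), to between 75.3% and 83.3% in 3 mice.

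That fall in GL7+ cells was close to the threshold. The adjusted p was 0.25 with a pseudocount of 0.1 and 0.088 without the filter on low values. It was 0.12 without GL7+ DMSO replicate 2, 0.062 without GL7+ DMSO replicate 3, 0.079 without GL7+ GSK-J4 replicate 1 and 0.1 without GL7+ GSK-J4 replicate 3. Between the fractions under DMSO, CD138+ cells were higher by 0.41 (adjusted p = 0.0018, and 0.071 with a pseudocount of 0.1).

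Slc7a1, the more widely expressed of the pair, was at 15.4, 16.2 and 17.9 RPKM in naive libraries and at 52.1 to 58.1 in the DMSO libraries of both fractions. The log2 change against naive cells was 1.74 (adjusted p = 4.1e-13) in GL7+ and 1.64 (5.2e-13) in CD138+ cells. GSK-J4 libraries, at 57.1, 60.8 and 54.2 in GL7+ and 52.3, 52.7 and 53.6 in CD138+ cells, overlapped with DMSO, with 95% intervals from -0.11 to 0.12 and from -0.13 to 0.10. Under DMSO CD138+ libraries were slightly below GL7+ libraries without passing the test (-0.10, adjusted p = 0.12, and 0.045 when only cultured groups were fitted).

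In the Slc1 family, the 2 neutral carriers moved apart. Slc1a4 (ASCT1), which exchanges alanine, serine, cysteine and threonine, was at 0.348, 0.193 and 0.371 RPKM in naive libraries, from 18, 1 and 9 reads. It was at 12.0, 13.7 and 11.6 in GL7+ DMSO and at 9.13, 11.2 and 10.3 in CD138+ DMSO. The log2 change against naive cells was 3.37 (adjusted p = 1.2e-13) and 3.10 (1.7e-13). With GSK-J4 it was at 8.44, 9.22 and 7.76 in GL7+ and at 7.75, 6.87 and 7.68 in CD138+ libraries, all below the DMSO libraries of the same fraction. It fell by 0.51 (SE 0.0927, adjusted p = 0.0032) in GL7+ cells, to between 66.8% and 70.1% of DMSO in 3 mice. In CD138+ cells it fell by 0.41 (adjusted p = 0.011), unevenly, to 84.9% of DMSO in mouse 1 and 61.2% in mouse 2. The CD138+ call was lost with a pseudocount of 0.1 (adjusted p = 0.073) and without CD138+ DMSO replicate 2 (0.056). Slc1a4 was also lower in CD138+ than in GL7+ cells under DMSO (-0.27, adjusted p = 0.023). That difference missed the threshold with a pseudocount of 0.1 (0.13), with TMM scaling (0.064), with quantile normalization (0.08) and without GL7+ DMSO replicate 2 (0.11), CD138+ DMSO replicate 1 (0.11) or CD138+ DMSO replicate 3 (0.051).

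Slc1a5 (ASCT2), the main importer of glutamine in many dividing cells, was already abundant in naive cells, at 114, 90.8 and 111 RPKM in naive libraries. It was at 100, 105 and 103 in GL7+ DMSO and at 175, 165 and 180 in CD138+ DMSO libraries. Only the CD138+ libraries stood apart, by 0.72 over naive cells (SE 0.0732, adjusted p = 2.5e-07) and 0.75 over GL7+ cells (6.6e-07). GL7+ and naive cells overlapped (-0.03, adjusted p = 0.75), though GL7+ cells were lower with quantile normalization (-0.39, 9.8e-05) and without naive replicate 2 (-0.13, 0.038). In GSK-J4 libraries it was at 106, 109 and 113 in GL7+ cells, just above DMSO in each case, and at 159, 173 and 178 in CD138+ cells, and neither passed (95% intervals from -0.07 to 0.24 and from -0.19 to 0.13).

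Slc1a1 (EAAT3), a carrier of glutamate and cysteine, had 0 reads in all 3 naive libraries, which allows up to 0.0233 RPKM at 3 reads over the group. It was at 0.432, 0.336 and 0.311 RPKM in GL7+ DMSO and at 1.52, 1.17 and 1.26 in CD138+ DMSO libraries. Against that limit the level was at least 15.5-fold higher in GL7+ and at least 56.6-fold higher in CD138+ cells. The fractions did not overlap (log2 change 0.77, adjusted p = 1e-05). Slc1a1 reached 1 RPKM in CD138+ libraries alone, 6 in all, so it was tested through the groups where it was highest. That p-value is thus no independent support for its excess there. GSK-J4 libraries, at 0.158 to 0.381 in GL7+ and 1.06 to 1.44 in CD138+ cells, overlapped with DMSO.

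In the Slc38 family of sodium-coupled neutral amino acid carriers, Slc38a1 and Slc38a2, which load cells with glutamine, were the most abundant along with Slc38a10. Slc38a1 was at 26.6 to 27.2 RPKM in naive and at 28.3 to 31.2 in cultured libraries. Against naive cells it was higher by 0.15 (adjusted p = 0.0038) in GL7+ and by 0.11 (0.024) in CD138+ cells. With quantile normalization neither passed (0.63 and 0.38), and the CD138+ call was lost without naive replicate 3 (0.062) or CD138+ DMSO replicate 1 (0.081). Its GSK-J4 libraries overlapped with DMSO in both fractions.

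Slc38a2, a classic target of the amino acid response, was at 113, 92.9 and 101 RPKM in naive, 82.9, 76.8 and 85.2 in GL7+ DMSO and 113, 103 and 111 in CD138+ DMSO libraries. GL7+ cells were thus lowest (-0.32 against naive cells, adjusted p = 0.00036; CD138+ above GL7+ cells by 0.42, 7.3e-05). CD138+ and naive cells overlapped, and the sign of their difference turned with the scaling: 0.10 (adjusted p = 0.19), 0.24 (0.0016) with TMM scaling and -0.23 (0.0083) with quantile normalization. Without naive replicate 1 it was 0.17 (0.015). In GL7+ cells with GSK-J4 it was at 73.0, 74.5 and 70.2, below all 3 DMSO libraries, with a log2 change of -0.17 (SE 0.0655) and an adjusted p of 0.11. That p was 0.041 with limma's voom on recovered reads, 0.027 when only cultured groups were fitted, 0.047 without naive replicate 1 and 0.043 without naive replicate 2. In CD138+ cells it was at 106, 110 and 105 and overlapped with DMSO (-0.03, adjusted p = 0.84).

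Slc38a10, a less studied member of the family, was the one of the 24 tested genes that rose with GSK-J4 in both fractions. It was at 17.4, 17.3 and 15.5 RPKM in GL7+ DMSO and at 19.2, 21.5 and 20.4 in GL7+ GSK-J4 libraries. In CD138+ cells it was at 43.2, 47.0 and 46.6 with DMSO and at 48.1, 55.1 and 58.4 with GSK-J4. Each GSK-J4 library was above each DMSO library of its fraction, with log2 changes of 0.27 (SE 0.0718, adjusted p = 0.026) and 0.23 (0.047). It was also higher in CD138+ than in GL7+ cells under DMSO, by 1.39 (adjusted p = 9.8e-10), and it was at 16.4, 16.1 and 17.3 in naive libraries, level with GL7+ DMSO cells (0.01, adjusted p = 0.88). Its rises were close to the threshold. The one in CD138+ cells was lost in the fit blocked by mouse (adjusted p = 0.18), with TMM scaling (0.096), with quantile normalization (0.054), with a pseudocount of 0.1 (0.051), without the filter (0.11) and when any of 10 of the 15 libraries was left out (0.051 to 0.18, the highest without CD138+ GSK-J4 replicate 4). The one in GL7+ cells was lost without the filter (0.068) and without GL7+ DMSO replicate 3 (0.11), GL7+ GSK-J4 replicate 2 (0.11) or GL7+ GSK-J4 replicate 3 (0.074). The plasmablast markers summed higher in the same libraries, and their part was not tested.

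Slc38a9, the arginine sensor and leucine exporter of the lysosome, was at 8.31, 7.74 and 7.09 RPKM in naive libraries. It was at 3.00, 2.65 and 3.31 in GL7+ DMSO and at 2.85, 2.30 and 2.66 in CD138+ DMSO libraries, with log2 changes against naive cells of -1.13 (adjusted p = 6.8e-09) and -1.27 (1.4e-09). With GSK-J4 the GL7+ libraries were at 2.21, 2.28 and 2.26, below all DMSO libraries (-0.29, SE 0.0829, adjusted p = 0.032). In CD138+ cells they were at 2.19, 2.35 and 2.27 and overlapped with DMSO (-0.14, 0.31). The GL7+ call was lost with quantile normalization (0.095). It was also lost without GL7+ DMSO replicate 1 (0.094) or 3 (0.14), or without GL7+ GSK-J4 replicate 1 (0.08), 2 (0.082) or 3 (0.083).

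Slc36a1, a proton-coupled carrier of small neutral amino acids on the lysosome, was lower than in naive cells by 0.99 on the log2 scale in GL7+ cells (6.43 ± 0.991 against 2.72 ± 0.347 RPKM, n = 3, adjusted p = 2.2e-07) and by 0.50 in CD138+ cells (4.22 ± 0.261, adjusted p = 0.00025). Slc38a7, a lysosomal exporter of glutamine and asparagine, was at 8.04 ± 0.365 RPKM in naive, 5.42 ± 0.520 in GL7+ DMSO and 4.82 ± 0.266 in CD138+ DMSO cells. Slc38a6 was near 1 RPKM or below, from 0.487 to 1.15. It was lower than in naive cells in GL7+ DMSO (-0.46, adjusted p = 0.00031) and CD138+ DMSO cells (-0.34, 0.0031). Only the 3 naive libraries reached 1 RPKM, so it was tested through the group where it was highest. Slc36a4, a proline and tryptophan carrier, went the other way, from 2.13 ± 0.436 in naive to 6.71 ± 1.25 in GL7+ DMSO and 5.23 ± 0.0177 in CD138+ DMSO cells. The fractions' difference in Slc36a4 (-0.29, adjusted p = 0.08) passed with voom (0.034), with the mouse as a block (0.05 after rounding) and without GL7+ DMSO replicate 2 (0.015). With GSK-J4 these 4 did not pass in either fraction, and their lowest unadjusted p was 0.0953, for Slc36a4 in GL7+ cells.

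The Slc43 family showed opposite patterns among its members. Slc43a2 (LAT4), which lets branched-chain and aromatic amino acids pass down their gradient, was highest in naive cells and lowest in CD138+ cells with GSK-J4. It was at 11.8, 14.1 and 10.6 RPKM in naive, 4.54, 3.91 and 4.25 in GL7+ DMSO and 2.70, 2.75 and 2.63 in CD138+ DMSO libraries, with no overlap. The log2 change was -1.32 (SE 0.0883, adjusted p = 2.2e-09) in GL7+ and -1.83 (4.1e-11) in CD138+ cells against naive cells, and -0.50 (0.0002) between fractions. With GSK-J4 it was at 3.16, 2.92 and 2.88 in GL7+ and at 1.64, 1.77 and 1.86 in CD138+ libraries. All were below the DMSO libraries of their fraction, by -0.39 (adjusted p = 0.01, and 0.053 without GL7+ DMSO replicate 1) and -0.42 (0.0063).

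Slc43a1 (LAT3), which carries the same kind of substrate, was at 2.55, 2.25 and 2.46 RPKM in naive, 3.08, 3.24 and 2.86 in GL7+ DMSO and 5.87, 5.71 and 5.91 in CD138+ DMSO libraries. It thus rose where Slc43a2 fell, by 0.25 (adjusted p = 0.0078) and 1.00 (8.6e-09) against naive cells. With GSK-J4 it was at 2.81, 2.77 and 2.26 in GL7+ cells, below the DMSO libraries without passing the test (-0.17, adjusted p = 0.16), and at 5.95, 5.84 and 6.39 in CD138+ cells, which overlapped. Slc43a3, the purine base carrier, was at 2.45, 2.34 and 2.33 in naive, 33.7, 32.6 and 33.5 in GL7+ DMSO and 24.0, 24.1 and 24.5 in CD138+ DMSO libraries. Its log2 change against naive cells was 3.34 (adjusted p = 2.8e-16) and 2.90 (8e-16), and CD138+ cells were below GL7+ cells by -0.44 (4.1e-06). GSK-J4 libraries, at 32.7, 30.3 and 33.9 in GL7+ and at 25.8, 24.4 and 23.3 in CD138+ cells, overlapped with DMSO.

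Of the 19 genes of the Slc6 family of sodium- and chloride-dependent carriers, the 2 that were tested both fell with GSK-J4. Slc6a6, the taurine transporter, was at 35.9, 33.6 and 35.6 RPKM in GL7+ DMSO and 29.5, 29.9 and 28.9 in GL7+ GSK-J4 libraries. In CD138+ cells it was at 20.5, 20.5 and 20.1 with DMSO and at 15.3, 15.7 and 15.2 with GSK-J4. The groups were tight and did not overlap, with log2 changes of -0.24 (SE 0.0418, adjusted p = 0.0021) and -0.38 (6.7e-05). Naive libraries, at 25.4, 26.1 and 25.2, lay between the fractions: GL7+ DMSO cells were above them by 0.44 (1.3e-07) and CD138+ DMSO cells below them by -0.32 (5e-06).

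Slc6a9 (GlyT1), the glycine transporter, was nearly absent from naive cells, with 2, 0 and 2 reads. It was at 6.53, 7.05 and 6.61 RPKM in GL7+ DMSO and at 6.19, 6.28 and 7.12 in CD138+ DMSO libraries, levels that overlapped (-0.04, adjusted p = 0.74). With GSK-J4 it was at 4.67, 3.56 and 3.48 in GL7+ and at 4.50, 4.48 and 4.18 in CD138+ libraries, all below DMSO. It fell by 0.66 (SE 0.0912, adjusted p = 0.00062) in GL7+ cells, to between 50.5% and 71.5% of DMSO in 3 mice, which was the largest GSK-J4 change of a tested transporter there. In CD138+ cells it fell by 0.48 (adjusted p = 0.0034, and 0.076 with a pseudocount of 0.1), to 71.3% and 72.8% in 2 mice.

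**Figure D4:**
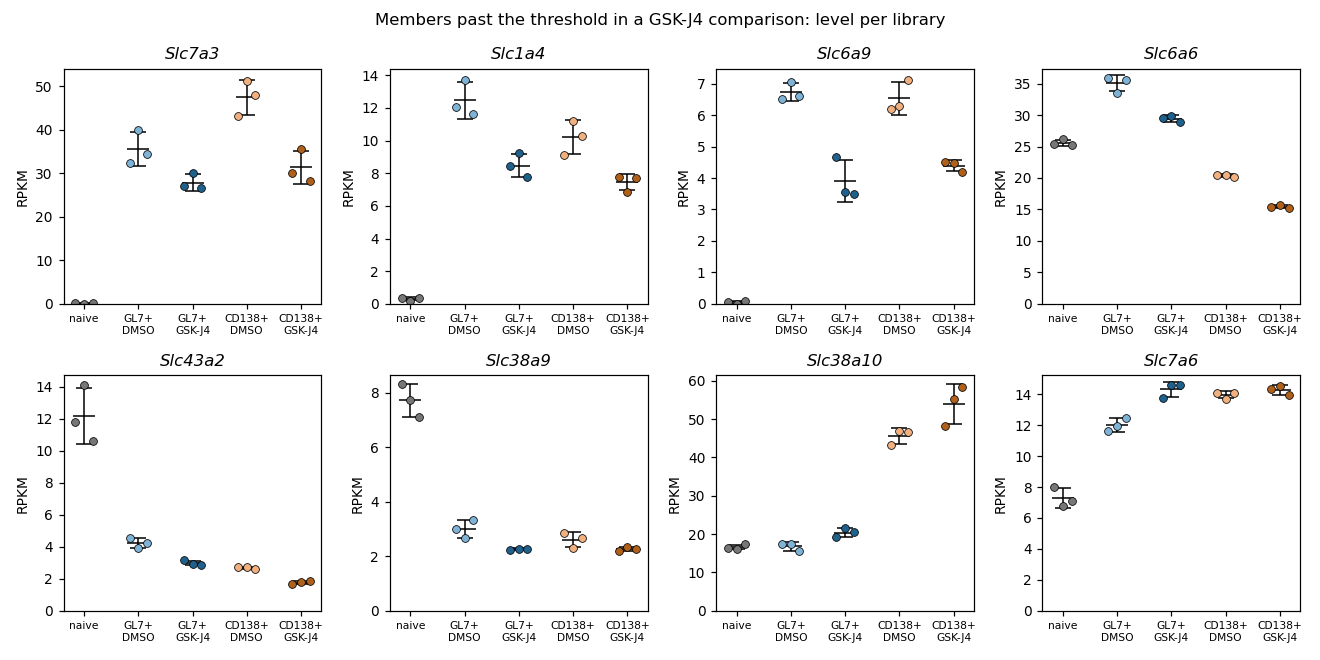
RPKM per library, with mean ± SD (n = 3), of the 8 transporter genes that passed the threshold in a GSK-J4 comparison, by group. The GSK-J4 points lie apart from the DMSO points, except those of Slc38a9 and Slc7a6 in CD138+ cells. The genes were chosen by these comparisons, so their separation adds nothing to the calls. In GL7+ cells Slc1a5, Slc38a2, Slc38a7 and Slc43a1, which are not shown, also lay apart from DMSO without passing.

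Whether the GSK-J4 effect differed between the fractions was tested directly. Limma called 0 of the 24 genes in this difference (0.966% of all genes passed, 0.322% higher and 0.644% lower), 2 had an unadjusted p under 0.05, and limma's voom on recovered reads also called 0. The 2 were Slc7a6, at -0.21 (95% interval -0.38 to -0.03, unadjusted p = 0.0252, adjusted p = 0.28), and Slc6a6, at -0.13 (-0.26 to -0.01, unadjusted p = 0.0405, adjusted p = 0.34), as CD138+ minus GL7+ on the log2 scale. For Slc7a3 the difference was -0.25, with an interval from -0.53 to 0.04. For Slc1a4 the interval ran from -0.18 to 0.38 and for Slc43a2 from -0.30 to 0.24. A call in 1 fraction alone, as for Slc38a9 (interval of the difference -0.10 to 0.40), is thus not shown to be particular to it. Of the genes that fell with GSK-J4, Slc6a6, Slc43a2 and Slc1a4 were also lower in CD138+ than in GL7+ cells under DMSO, while Slc7a3 was higher and Slc6a9 and Slc38a9 did not pass.

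Of the 37 genes that were not tested, 35 stayed below 1 RPKM in every library and 5 had 0 in all 15. The other 2, Slc7a13 at 3.16 RPKM and Slc38a11 at 1.42, passed 1 RPKM only in naive replicate 2, the shallowest library, from 14 and 3 reads. They were singled out after their values were seen. The 17 untested genes of the Slc6 family include the carriers of serotonin (Slc6a4) and dopamine (Slc6a3), whose highest values in any library were 0.552 and 0.220 RPKM. Slc3a1, the heavy chain of the kidney cystine carrier, had reads in every library and reached 0.852 RPKM at most.

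Lists of related genes give the surroundings of these carriers. A list of carriers outside the 7 families, mostly of amino acids and peptides and mostly in mitochondria and lysosomes, had 18 tested genes. Of these, 1 rose and 1 fell with GSK-J4 in CD138+ cells (13.2% of all genes passed). In GL7+ cells 3 rose and 1 fell (13.5% of all genes passed). Slc17a9, 1 of the 3 that rose there, is a carrier of nucleotides. Slc15a3, a lysosomal carrier of histidine and peptides, rose from 2.83 ± 0.348 to 4.72 ± 0.471 RPKM in GL7+ cells (log2 change 0.58, adjusted p = 0.0011) and from 4.43 ± 0.216 to 6.45 ± 0.532 in CD138+ cells (0.45, 0.0042). Sfxn3, a mitochondrial carrier related to the serine importer Sfxn1, fell from 4.62 ± 0.267 to 2.50 ± 0.364 in GL7+ cells (-0.69, 0.00034) and from 3.88 ± 0.0948 to 2.53 ± 0.277 in CD138+ cells (-0.47, 0.0029). The CD138+ count of 2 was 4 without naive replicate 2. The GL7+ count of 4 was 2 without any 1 of the 6 GL7+ libraries and 7 without naive replicate 2.

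Of 35 tested genes of amino acid sensing by mTORC1, 1 fell with GSK-J4 in CD138+ cells (Lars, the leucyl-tRNA synthetase, -0.25, adjusted p = 0.015), and 3 fell and 1 rose in GL7+ cells. These counts do not exceed the shares of all genes that passed, 13.2% and 13.5%. Those that fell in GL7+ cells were the sestrins Sesn1 (-0.48, 0.0062) and Sesn2 (-0.37, 0.042), of which Sesn2 is a leucine sensor, and Gatsl2 (-0.49, 0.012), of the arginine sensor family. Sec13, of the GATOR complex and of vesicle coats, rose (0.19, 0.038). The medians of the list were -0.06 in CD138+ (-0.03 over all genes) and -0.03 in GL7+ cells (-0.01 over all genes). The count of 1 in CD138+ cells was 0 without CD138+ DMSO replicate 2 or 3 or CD138+ GSK-J4 replicate 1, 2 without GL7+ GSK-J4 replicate 3 or CD138+ GSK-J4 replicate 4, and 3 without naive replicate 2. The count of 4 in GL7+ cells was 2 without GL7+ DMSO replicate 1, 2 or 3 or GL7+ GSK-J4 replicate 1 or 3, and 7 without naive replicate 2.

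Of 24 tested genes of the amino acid response by GCN2 and ATF4, 7 fell and 1 rose with GSK-J4 in CD138+ cells, and 7 fell in GL7+ cells. Of all genes 13.2% and 13.5% passed, with 8.61% and 7.71% lower. The median log2 change of the list was -0.12 in CD138+ cells (-0.03 over all genes) and -0.18 in GL7+ cells (-0.01 over all genes). Several of these results in CD138+ cells were known when the list was drawn up, so its direction is no independent evidence. Trib3, a pseudokinase induced by ATF4, was at 14.2, 16.4 and 15.2 RPKM in GL7+ DMSO and at 9.43, 9.14 and 6.91 in GL7+ GSK-J4 libraries (-0.78, adjusted p = 0.0014). Cth, which makes cysteine from cystathionine, was at 22.1, 29.6 and 24.3 with DMSO and at 14.7, 14.2 and 12.0 with GSK-J4 in the same cells (-0.84, 0.001). In both genes every GSK-J4 library was below every DMSO library.

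Asns, asparagine synthetase, fell in GL7+ cells from 121 ± 10.2 to 85.4 ± 5.91 RPKM (log2 change -0.50, adjusted p = 0.045). Gpt2, which makes alanine in mitochondria, fell in GL7+ (-0.47, 0.0058) and in CD138+ cells (-0.35, 0.027). Mthfd2, of mitochondrial folate metabolism, fell in CD138+ cells from 87.6 ± 3.49 to 64.9 ± 2.84 (-0.43, 0.0018). Atf4 itself, which is regulated mainly at translation, was at 313 ± 13.5 and 289 ± 5.40 RPKM in GL7+ and at 304 ± 4.26 and 320 ± 4.86 in CD138+ cells with DMSO and GSK-J4, and passed in neither. Cebpb rose in CD138+ cells (0.45, 0.034). Against naive cells 19 of the 24 were higher and 5 lower in GL7+ DMSO, and 20 higher and 4 lower in CD138+ DMSO cells. Of all genes, 81.7% and 83.4% passed in these comparisons, with 41.3% and 39.9% higher. The count of 8 in CD138+ cells was 4 without CD138+ DMSO replicate 2 or 3 or CD138+ GSK-J4 replicate 4. The count of 7 in GL7+ cells was 4 without GL7+ DMSO replicate 2 or GL7+ GSK-J4 replicate 1 or 3.

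**Figure D5:**
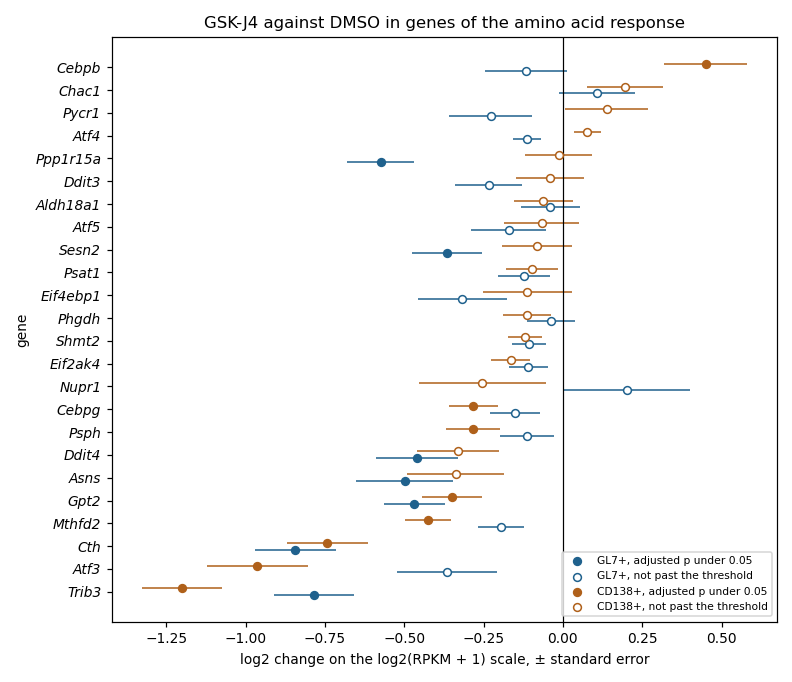
Log2 change with GSK-J4 against DMSO (log2(RPKM + 1) scale, ± SE) of the 24 tested genes of the amino acid response, in GL7+ (blue) and CD138+ (orange) cells. Filled points passed an adjusted p of 0.05, 7 in GL7+ and 8 in CD138+ cells, and all filled points but that of Cebpb lie to the left of 0.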

How the data were processed

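Poly(A) RNA of 15 libraries was sequenced. The authors deposited 1 table of RPKM values for 21761 genes. The submitters' processing notes name TopHat2 and the mm9 genome. Not given in the sources used here were the aligner's version, the counting tool, annotation, strand setting and filters. Low RPKM values were whole multiples of 1 step per library (values worth up to 20 reads, within 0.1 read, in 100% of cases), which gave reads and depth. Depth sets the counting error. It was lower in every CD138+ GSK-J4 library than in any CD138+ DMSO library, and its part in that comparison was not tested. The design foresaw counts or RPKM, and RPKM was used. Limma 3.58.1 (R 4.3.3) tested log2(RPKM + 1) of the genes that reached 1 RPKM in 3 or more libraries, with 1 mean per group over all 15 libraries and a trended variance. The Benjamini-Hochberg threshold was 0.05, and intervals are 95%. The script was tested on simulated data. Python 3.11.15 and matplotlib 3.10.9 drew the figures.

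Members and lists were chosen with earlier results of these data known. Per-library values are given for members that passed in a GSK-J4 comparison or its difference between fractions, for those with an absolute log2 change of at least 1 and at least 10 RPKM in the higher group between cell states, and for a fixed set of carriers (Slc3a2, its light chains, Slc7a1, Slc1a4, Slc1a5, Slc38a1, Slc38a2, Slc38a9, Slc43a1 and Slc43a2). Slc1a1 was added after its values were seen. Alternatives were a pseudocount of 0.1, no filter, TMM scaling, quantile normalization, the mouse as a block, limma's voom on recovered reads, cultured groups only, and leaving out each library. Counts of the 3 lists under these were added after the data were seen. The labels give the mouse of each sample, so replicate numbers pair the samples. As a check, the samples' deviations from their group means were correlated. The median r was 0.0944 within a mouse (-0.0307 to 0.191, 15 pairs) and -0.0332 between mice (-0.145 to 0.0666, 30 pairs). These ranges overlap, and deviations that sum to 0 within a group tie the medians to each other. The CD138+ GSK-J4 column numbered 4 matched its group and no single sample, so it has no mouse. All 61 symbols matched RefSeq by Entrez identifier, which served for promoters and neighbours. Its assembly GRCm38.p6 differs from mm9, and the deposited table has no coordinates.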

Additional observations from a re-analysis of the deposited data

How the results depend on the processing

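Of the alternatives, a pseudocount of 0.1 moved the count of members that passed with GSK-J4 in CD138+ cells from 6 to 3, and the cause was not tested. Leaving out 1 library at a time gave 4 to 6 for that count and 4 to 9 for the count of 8 in GL7+ cells (5 without GL7+ DMSO replicate 1, GL7+ DMSO replicate 3 or GL7+ GSK-J4 replicate 2, and 4 without GL7+ GSK-J4 replicate 3). It gave 0 to 0 for the difference between fractions, 16 to 17 for CD138+ against GL7+ cells, 21 to 22 for GL7+ and 22 to 24 for CD138+ against naive cells. With the mouse as a block, the 6 counts were 5, 8, 0, 18, 21 and 23 in the order CD138+ GSK-J4, GL7+ GSK-J4, difference, CD138+ against GL7+, GL7+ against naive and CD138+ against naive. Beside the loss of Slc38a10 in CD138+ cells, given above, the block added Slc36a4 to the genes lower in CD138+ than in GL7+ cells and changed no other call of a tested member. The library without a mouse is fitted exactly in that block, so it adds nothing to it. The 1 reversal was Slc38a2 in CD138+ DMSO against naive cells, at -0.23 with quantile normalization against 0.10 as reported, and the cause was not tested. TMM scaling moved the median of all genes against naive cells from -0.05 to 0.08 in CD138+ cells. Without the filter all 61 genes entered, with 28 called in GL7+ and 30 in CD138+ cells against naive cells. Over the 6 comparisons and all alternatives, the tested members kept their side of the threshold in 3057 cases, lost a call in 49, gained one in 13 and reversed in 1. Under the alternatives other than leaving out a library, the counts in CD138+ and GL7+ cells ran from 2 to 4 and from 2 to 8 for other carriers, from 1 to 3 and from 2 to 7 for mTORC1 sensing, and from 4 to 10 in both for the amino acid response. Depth limits low genes in naive replicate 2, with 1318004 reads.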
